A study of Mus musculus with 4 samples.

Results

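The Notch pathway was read through 10 genes across 4 mouse cerebellar tumors: the receptors Notch1 and Notch2, the ligands Dll1, Dll3 and Jag1, the nuclear effector Rbpj, and the basic helix-loop-helix genes Hes1, Hes5, Hes6 and Hey1. They were chosen by name, as 10 of the 13320 genes that had a probe set with a single gene symbol on the Affymetrix Mouse Genome 430 2.0 array, and all 16 probe sets of these genes were used. Total RNA of each tumor was hybridised to 1 array. Every tumor carries the genotype label Chd7-het, where Chd7 encodes a chromatin remodelling ATPase, and all share a mixed CD1xC57BL/6 strain background. The tumors are called 1, 2, 4 and 5 after the numbers in their titles. The labels name no further allele, promoter, treatment, sex or age, no clonal relation, and no normal or other-genotype tissue, so the only comparison made was of each tumor with the other 3. They call the samples separate tumors and do not say whether each came from a different mouse.

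Notch signalling passes between touching cells. A Delta or Jagged ligand on a cell binds a Notch receptor on its neighbour, the receptor is cut by an ADAM protease and then by the γ-secretase complex, and the freed intracellular domain joins the DNA-binding protein Rbpj and a Mastermind coactivator to switch on Hes and Hey genes, whose products repress proneural transcription factors. In the developing cerebellum the pathway is known for its part in holding granule cell progenitors and glial progenitors back from differentiation.

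The stretches upstream of Hes5, Dll3 and Hes6 are shown because Hes5 and Dll3 varied most among the 10 genes, whereas Hes6, a Hes family member induced by proneural factors rather than by Notch, varied little. Of the 10 genes 8 had entries in the RefSeq promoter table of the GRCm38.p6 build, with 11 windows in all. Hes1 and Hey1 had no entry, so the stretches upstream of these Notch targets were not searched. In each window the 250 bases before the annotated start were searched on both strands. The heptamer GTGGGAA, a strong Rbpj binding sequence, was found in 1 of the 11 windows, that of Hes5, and in 5.42% of all 32851 windows of the table. In Hes5 (chr4:154960673-154960922, plus strand) it began 83 bases before the start, and its reverse complement began 226 bases before it. Both are in capitals.
Hes5: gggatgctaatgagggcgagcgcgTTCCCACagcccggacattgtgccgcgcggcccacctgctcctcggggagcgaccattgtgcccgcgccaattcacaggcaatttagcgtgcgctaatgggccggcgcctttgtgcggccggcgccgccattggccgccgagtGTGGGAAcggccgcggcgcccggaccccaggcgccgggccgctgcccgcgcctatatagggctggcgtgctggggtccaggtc
The E-box hexamers CAGCTG and CAGGTG, sequences of a kind bound by proneural factors, were each found in 5 of the 11 windows, against 13.0% and 17.2% of all windows. They are in capitals in Dll3 (chr7:28301786-28302035, minus strand) and in both windows of Hes6 (chr1:91413223-91413472 and chr1:91414039-91414288, minus strand), in that order.
Dll3: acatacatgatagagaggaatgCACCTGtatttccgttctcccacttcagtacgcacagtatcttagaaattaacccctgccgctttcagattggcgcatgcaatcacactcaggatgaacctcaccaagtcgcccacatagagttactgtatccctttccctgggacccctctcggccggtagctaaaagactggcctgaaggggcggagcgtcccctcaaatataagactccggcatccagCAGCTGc
Hes6, first window: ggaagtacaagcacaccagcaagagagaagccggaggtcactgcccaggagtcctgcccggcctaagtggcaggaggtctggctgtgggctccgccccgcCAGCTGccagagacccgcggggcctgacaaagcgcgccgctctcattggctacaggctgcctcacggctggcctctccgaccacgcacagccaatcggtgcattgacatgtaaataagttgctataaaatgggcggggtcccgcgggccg
Hes6, second window: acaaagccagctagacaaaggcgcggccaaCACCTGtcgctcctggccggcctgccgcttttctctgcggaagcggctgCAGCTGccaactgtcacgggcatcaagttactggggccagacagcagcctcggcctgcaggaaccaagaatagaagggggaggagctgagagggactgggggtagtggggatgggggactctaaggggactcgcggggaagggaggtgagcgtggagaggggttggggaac
In the Dll3 window CAGCTG began 7 bases before the annotated start and CAGGTG, on the opposite strand, 228 bases before it. The CAGCTG of the 2 Hes6 windows began 150 and 171 bases before the start, so the 5 windows with CAGCTG count Hes6 at both. The Hes5 window also holds a CAGGTG on the opposite strand, 194 bases before the start, which is not in capitals. These matches describe the letters only, since no binding was measured.

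The deposited signal is on the log2 scale, so a difference of 1 is 2-fold. A floor at 5.12, set from the 40th percentile of the arrays, marks signals too low to be ordered, and 59.1% to 61.3% of probe sets lay above it on each array. Probe sets with a mean of at least 5.87 and a single symbol, 13525 in all, entered the comparison of each tumor with the other 3. The 3' to 5' ratio of the Gapdh control, a sign of RNA quality, was between 0.686 and 0.757. Of the granule cell progenitor markers, 7 of the 7 measured passed the filter, Atoh1 and Zic1 among them. So did 12 of 12 astrocyte and Bergmann glia, 8 of 8 microglia and 7 of 7 measured dividing-cell markers. Of all 13320 genes, 8498 had a probe set past the filter, so passing it does not identify the tissue. Of 7 endothelial markers, 5 (Cdh5, Emcn, Flt1, Kdr and Tek) lay below the floor in all 4 tumors. In a bulk tumor, fewer cells of a type and less RNA per cell cannot be told apart.

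Of the 16 Notch probe sets, 14 passed the filter and stood for 9 of the 10 genes. The 2 that did not were the single probe set of Dll1, which was above the floor in 3 tumors, and the dimmest of Jag1 (1421105_at), which was below it in all 4. The transcripts were therefore measurable in every tumor, Dll1 excepted, and the signals of most of them lay close together. Over the 14 probe sets the range, that is the highest minus the lowest tumor, had a median of 0.47, against 0.39 over all probe sets tested. A range of 2-fold or more was seen in 2 of the 14, a Hes5 and the Dll3 probe set, against 5.48% of all probe sets tested. Any range shrinks when its highest or lowest tumor is left out. That of Dll3 was 0.97 without tumor 1 and 0.95 without tumor 2, and that of Hes5 1456010_x_at was 0.90 without tumor 5.

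**Figure D1:**
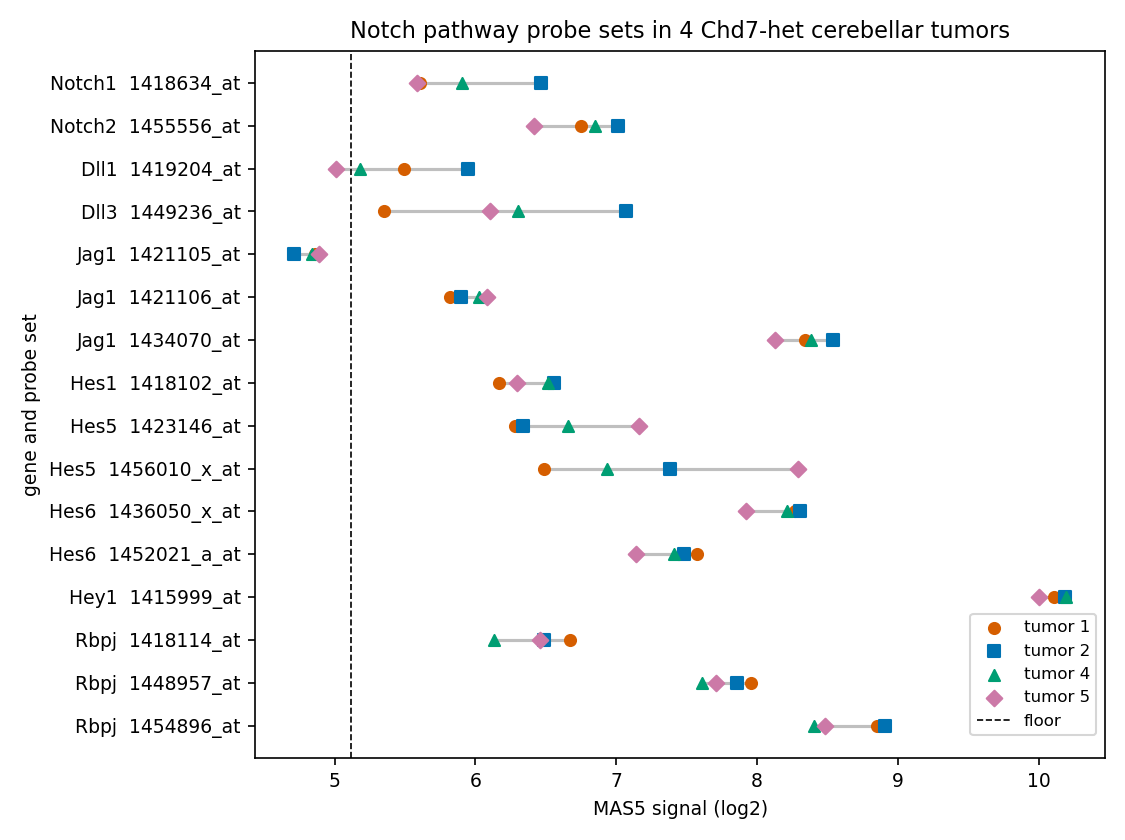
Log2 MAS5 signal (x axis) of the 16 Notch pathway probe sets (y axis) in tumors 1, 2, 4 and 5, 1 symbol per tumor, with the floor as a dashed line. The widest spans are those of Hes5 1456010_x_at, from 6.48 to 8.29, and Dll3, from 5.35 to 7.07, and Hey1 spans 10.005 to 10.20.

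The receptors were read first. Notch1 gave a log2 signal of 5.61, 6.47, 5.90 and 5.58 in tumors 1, 2, 4 and 5. Tumor 2 was highest, 0.56 above the next, while tumors 1 and 5 differed by 0.027. Set against the other 3 (5.70 ± 0.18, SD, n = 3), tumor 2 was higher by 0.77 (SE 0.24), or 1.70-fold, which did not pass (limma, Benjamini-Hochberg adjusted p = 0.784 over all probe sets). Of all probe sets tested, 2.02% lay as far from the other 3 in tumor 2. Notch1 lies just inside the filter, with a mean of 5.89, where signals are noisy: among the 2020 probe sets within 0.5 of its mean, 15.1% had as wide a range.

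Notch2, the receptor best known from granule cell progenitors, read 6.75, 7.01, 6.85 and 6.41 in tumors 1, 2, 4 and 5. Its order was that of Notch1, with tumor 2 highest and tumor 5 lowest, in a span of 0.60. Tumor 5 differed from the other 3 (6.87 ± 0.13, SD, n = 3) by -0.46 (SE 0.22, adjusted p = 0.954), and tumor 2 by 0.34 (SE 0.24, adjusted p = 0.793). Neither passed.

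Among the ligands, Dll3 stood out by its span. Dll3 encodes a divergent Delta-like protein that does not activate Notch on a neighbouring cell and acts inside the cell that makes it. It read 5.35, 7.07, 6.30 and 6.10 in tumors 1, 2, 4 and 5. Tumor 1 was lowest and tumor 2 highest, each 0.75 or more away from the nearest other tumor, and tumors 4 and 5 lay between them. Tumor 2 was 3.29-fold above tumor 1, and 1.90% of the 3204 probe sets of like signal had as wide a range.

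In the comparison with the other 3, Dll3 was 2.22-fold higher in tumor 2 (difference 1.15, SE 0.39, adjusted p = 0.784) and 2.20-fold lower in tumor 1 (difference -1.14, SE 0.36, adjusted p = 0.275). Neither passed over all probe sets. Without tumor 5 the difference of tumor 1 was -1.33 and passed (adjusted p = 0.000163), whereas without tumor 2 it was -0.85 (adjusted p = 0.0610) and over all its settings the adjusted p ran from 0.000163 to 0.737. With the floor at the 50th percentile, above the signal of Dll3 in tumor 1, the difference was -0.62. Tumor 1 is also the tumor in which many markers of mature neurons and oligodendrocytes were high. The summed linear signal of 7 Purkinje and inhibitory neuron markers was 3402 there and between 208 and 443 in the others. Of these 7 the 4 past the filter (Calb1, Car8, Gad1 and Pcp4) were all called higher in tumor 1, Gad2 was below the floor in every tumor and Slc32a1 was listed at 0 in tumors 2 and 5. The sum of 7 dividing-cell markers was 6144 in tumor 1 against 8392 to 8726, with 0 of 7 above the mean of the other 3. The oligodendrocyte markers summed to 4266 in tumor 1 and to between 515 and 1056 in the others. Of their 11 probe sets past the filter, 7 were called higher in tumor 1, against 0.872% of all tested in either direction. These belong to Mbp, Cldn11 and Ugt8a. Of the Mbp probe sets not called, the brightest was higher there by 2.96, and the others differed by -0.077 and -0.11. Sox10 went the other way and was lowest in tumor 1 at its brightest probe set (difference -0.80). Markers of mature granule and other neurons summed to 6852 against 2760 to 3074, with 3 probe sets called higher in tumor 1 (Chn2, Snap25 and Syt1). The astrocyte and Bergmann glia sum was 10815 against 8357 to 9621, and 9 of the 12 genes read above the mean of the other 3 (43.7% of all 8498 genes). Gdf10 was higher by 1.84, whereas Gfap and Sox9 were lowest in tumor 1 at their brightest probe sets (differences -0.98 and -0.31). The dimmer Gfap probe sets were lowest in tumor 5, with differences of -0.23 and -0.20 in tumor 1. The pericyte and smooth muscle sum was 714 against 309 to 399. It rests mostly on Rgs5, the 1 gene of the 4 measured that passed the filter (difference 1.08). Pdgfrb and Acta2 were above the floor in tumor 1 only, and Kcnj8 in no tumor. The microglia and macrophage sum, in contrast, was lowest in tumor 1, at 2207 against 2923 to 4069. The part of any of these cells in the low Dll3 signal was not tested.

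Dll1, the ligand of progenitors that have begun to differentiate, read 5.49, 5.95, 5.18 and 5.01, the last below the floor. Tumor 2 was again highest, by 0.46, but the probe set had too low a mean to be tested. Jag1, a ligand of granule cell progenitors and glia, was read by 3 probe sets. The brightest, 1434070_at, gave 8.34, 8.54, 8.38 and 8.13, a span of 0.41 with tumor 2 highest and tumor 5 lowest. The other above the floor, 1421106_at, gave 5.82, 5.90, 6.03 and 6.08, with tumor 5 highest. The Jag1 probe sets thus ordered the tumors differently, and no difference of either passed (adjusted p from 0.790 to 1.00).

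Rbpj, on which the nuclear response converges, was lowest in tumor 4 by each of its 3 probe sets. The brightest, 1454896_at, read 8.85, 8.91, 8.41 and 8.48 in tumors 1, 2, 4 and 5, the next, 1448957_at, 7.96, 7.86, 7.61 and 7.71, and 1418114_at 6.67, 6.49, 6.13 and 6.46. Tumors 1 and 2 were above tumors 4 and 5 on all 3. The steps were small: tumor 4 differed from the other 3 by -0.34 (SE 0.23), -0.23 (SE 0.21) and -0.41 (SE 0.24), with an adjusted p of 1.00 for each.

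Hes5, a direct Notch target of neural progenitors and glia, had the widest range of the 14 probe sets. By 1456010_x_at it read 6.48, 7.38, 6.94 and 8.29 in tumors 1, 2, 4 and 5, and by 1423146_at 6.28, 6.34, 6.66 and 7.16. Tumor 5 was highest and tumor 1 lowest on both, and tumors 2 and 4 changed places between them. The spans were 3.50-fold and 1.84-fold. The suffix _x_at marks a probe set that may also bind transcripts of other genes, and the span was the wider on that one. Of the 3845 probe sets within 0.5 of its mean, 1.07% ranged as widely, and 11.9% did so for 1423146_at.

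Against the other 3 (6.93 ± 0.45, SD, n = 3), tumor 5 was 2.56-fold higher in 1456010_x_at (difference 1.36, SE 0.34) and 1.66-fold higher in 1423146_at (0.73, SE 0.24), with an adjusted p of 0.954 for both, so neither passed. Without tumor 1 the first difference was 1.13 and passed (adjusted p = 0.000524), and the second was 0.66 and did not (adjusted p = 0.346). Over all settings of the first the adjusted p ran from 0.000524 to 1.00. A further Notch target, Nrarp, whose product feeds back on the receptor's intracellular domain, was also highest in tumor 5 on both of its probe sets, at 7.06, 7.32, 7.10 and 7.87 by 1417985_at and 5.77, 6.10, 5.74 and 6.37 by 1417986_at. Its differences of 0.71 and 0.50 in tumor 5 did not pass (adjusted p = 0.954 for both). The summed signal of 12 astrocyte and Bergmann glia markers, cells in which Hes5 is known, was 9324 in tumor 5 and between 8357 and 10815 in the others. That of 7 granule cell progenitor markers was 11306 in tumor 5, the highest of the 4, against 9373 to 11092.

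**Figure D2:**
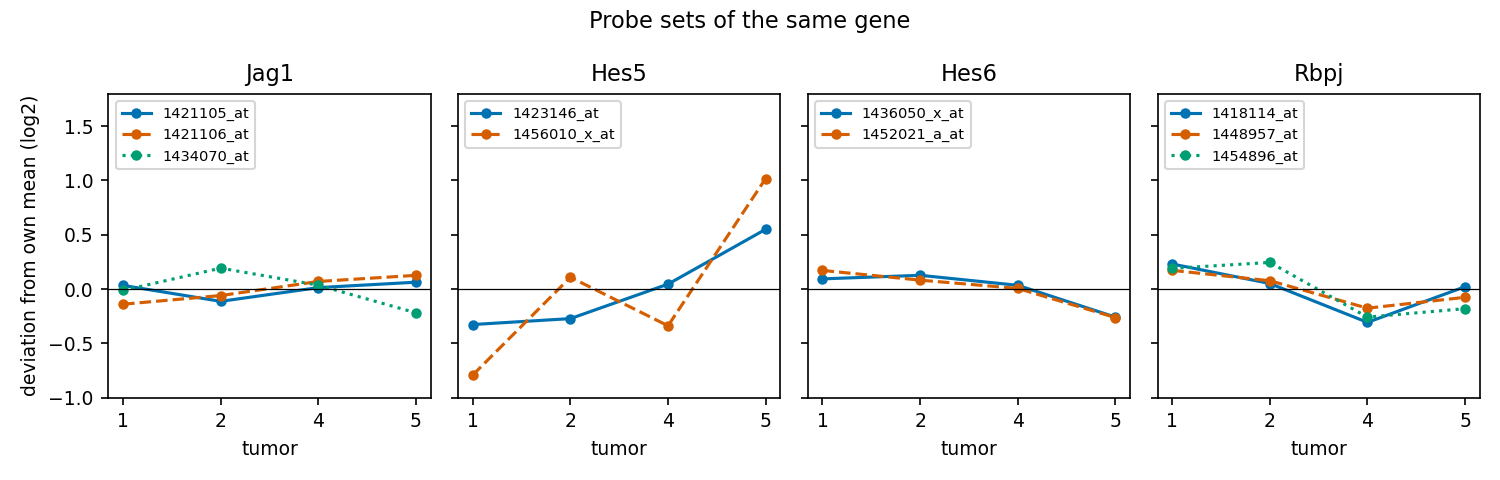
Deviation of each probe set from its own mean over the 4 tumors (y axis, log2) by tumor (x axis) for Jag1, Hes5, Hes6 and Rbpj, 1 line per probe set. Both lines of Hes5 peak in tumor 5, those of Rbpj are lowest in tumor 4, those of Hes6 are lowest in tumor 5, and those of Jag1 do not follow each other.

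The other Hes and Hey members did not share the pattern of Hes5. Hes1, a Notch target and repressor of Atoh1 and other proneural genes, read 6.16, 6.56, 6.51 and 6.29, with tumors 2 and 4 within 0.042 of each other at the top. Hey1, a target whose product pairs with Hes1, read 10.11, 10.19, 10.20 and 10.005. That is a span of 0.19, and 87.5% of all probe sets tested spanned as much or more. Hes6, whose product counteracts Hes1, read 8.27, 8.30, 8.21 and 7.92 by 1436050_x_at and 7.57, 7.48, 7.41 and 7.14 by 1452021_a_at. Hes6 was thus lowest in tumor 5 on both probe sets, where Hes5 was highest. Its differences there were -0.34 (SE 0.17) and -0.35 (SE 0.19), and neither passed (adjusted p = 0.954 for both). The largest difference of Hes1 was that of tumor 1, -0.29 (SE 0.22, adjusted p = 0.742), and that of Hey1 was tumor 5, -0.16 (SE 0.17, adjusted p = 0.954).

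No Notch probe set was called in any tumor, with a call taken at an adjusted p under 0.05 and 2-fold or more. The count was 0 of 14 in tumor 1, where 0.872% of all probe sets tested were called, and 0 of 14 in tumors 2, 4 and 5, where 0% were. At an unadjusted p under 0.05 there were 2 of 14 in tumor 1 (10.9% of all tested), 2 in tumor 2 (6.30%), 0 in tumor 4 (0.621%) and 2 in tumor 5 (3.55%). These were Dll3 and Hes5 1456010_x_at in tumor 1, Notch1 and Dll3 in tumor 2, and both probe sets of Hes5 in tumor 5. A single tumor set against 3 leaves little power: an exact permutation test of 1 value against 3 cannot go below p = 0.25, and the limma fit takes the lone tumor to vary like the others.

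**Figure D3:**
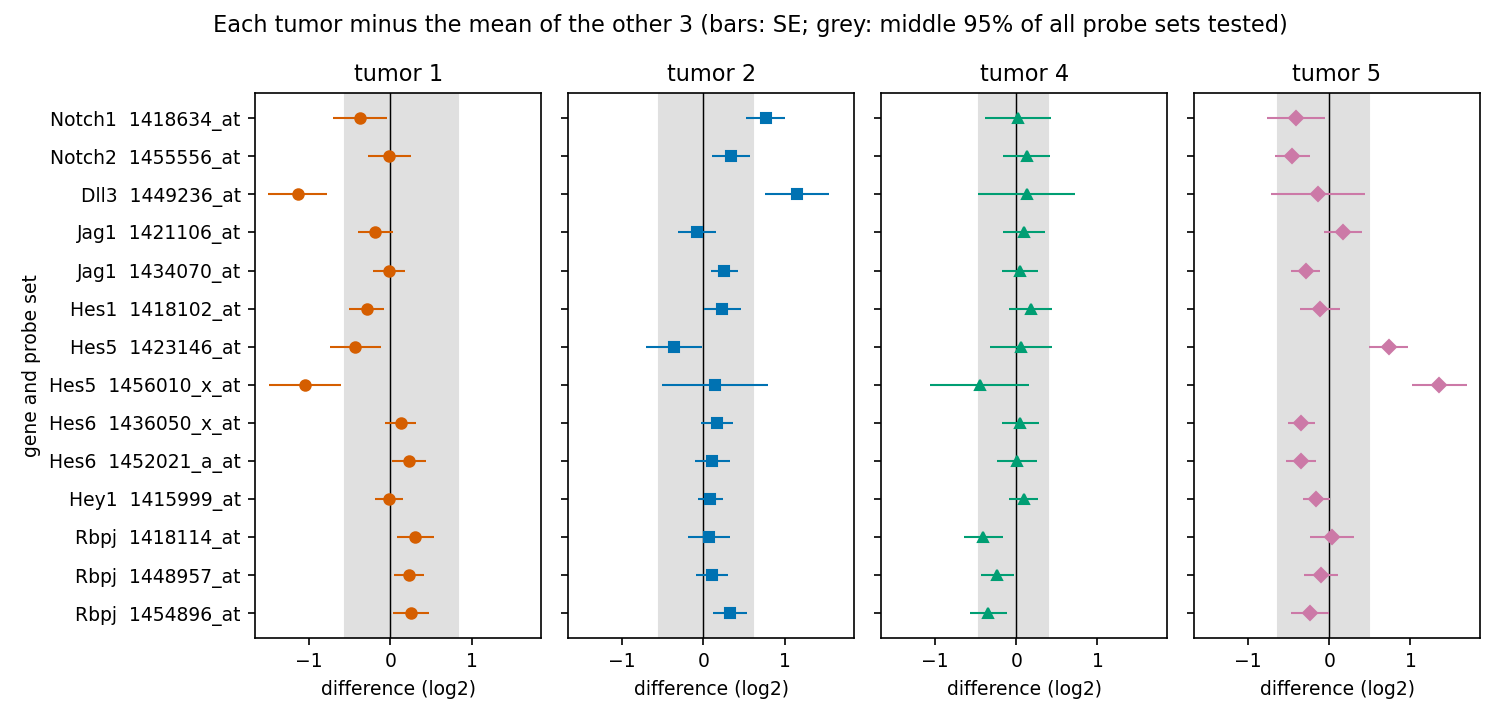
Each tumor minus the mean of the other 3 (x axis, log2, bars are the SE of the limma fit) for the 14 Notch probe sets past the filter (y axis), 1 panel per tumor, with the middle 95% of all 13525 probe sets in grey. Dll3 lies outside the grey band in tumors 1 and 2, Notch1 in tumor 2, Hes5 1456010_x_at in tumors 1 and 5 and Hes5 1423146_at in tumor 5, and every Rbpj point lies below 0 in tumor 4.

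Taken gene by gene at the brightest probe set, most members read highest in tumor 2. Of the 9 genes past the filter these were 7 (Notch1, Notch2, Dll3, Jag1, Hes1, Hes6 and Rbpj), against 26.4% of all 8498 genes, and 0 read lowest there, against 29.1%. The lead over the next tumor was 0.77 for Dll3 and 0.56 for Notch1, 0.16 for Notch2 and for Jag1, and 0.054 or less for Rbpj, Hes1 and Hes6. Over all 14 probe sets of these genes 7 were highest in tumor 2, against 28.2% of all 13525. Of the dimmer probe sets among these, that of Jag1 was highest in tumor 5, and those of Hes6 and Rbpj were highest in tumor 1. At the brightest probe set both receptors and all 3 ligands, the untested Dll1 included, were thus highest in tumor 2. Tumor 5 read lowest in 5 of the 9 genes (Notch1, Notch2, Jag1, Hes6 and Hey1), against 22.1% of all genes. Over the 14 probe sets the median difference was 0.16 in tumor 2, with 12 of 14 above 0, and -0.15 in tumor 5, with 4 of 14 above 0, while the medians of all probe sets were -0.0033 and 0.025. In tumors 1 and 4 the members' medians were -0.017 and 0.048. These counts describe 4 arrays and were not tested. Among the marker lists, the 4 oligodendrocyte precursor genes had a summed signal of 3385 in tumor 2 and between 2474 and 3189 in the others. Pdgfra and Cspg4 were highest in tumor 2. Olig1 and Olig2 were highest in tumor 5, at 10.54 and 8.27 against 10.31 and 8.18 in tumor 2. The astrocyte sum was lowest in tumor 2. The part of these cells in the lead of tumor 2 was not tested.

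The rest of the pathway was read through 66 further genes in 6 lists, of which 51 were measured and 38 passed the filter with 51 probe sets. None of the 51 probe sets was called in any tumor, higher or lower, where 0.872% of all probe sets tested were called in tumor 1 and 0% in each of the others. An unadjusted p under 0.05 was found for 11, 1, 0 and 4 of the 51 in tumors 1, 2, 4 and 5, against 10.9%, 6.30%, 0.621% and 3.55% of all probe sets tested. A range of 2-fold or more was seen in 2 of the 38 genes, against 5.15% of all 8498 genes at the brightest probe set. The 2 genes were Dner, a neuronal Notch ligand of Purkinje cells, at 10.56, 9.87, 9.97 and 9.47 in tumors 1, 2, 4 and 5, and Mfng, the Manic fringe glycosyltransferase that tunes which ligands a receptor answers to, at 5.63, 6.61, 6.82 and 6.63. The Dner values are those of 1456379_x_at, a probe set with the _x_at suffix. Its other probe set, 1423671_at, spanned 0.75, which is under 2-fold. Dner was highest in tumor 1 on both, and Mfng was lowest there. Dner was higher there by 0.79 (adjusted p = 0.189) and Mfng lower by a difference of -1.06, the smallest adjusted p of the 51 probe sets (0.0810), and neither passed.

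Among the 11 genes of receptor processing and glycosylation past the filter, 5 read above the mean of the other 3 in tumor 1, 7 in tumor 2, 5 in tumor 4 and 7 in tumor 5. Of all 8498 genes, 43.7%, 47.2%, 50.8% and 56.9% did so in tumors 1, 2, 4 and 5. Adam17, a protease of the ADAM family, read 6.94, 7.36, 7.19 and 7.68, and Poglut1, which adds glucose to the receptor, 8.03, 8.34, 8.38 and 8.87. Both were lowest in tumor 1 and highest in tumor 5, and their differences in tumor 5 of 0.52 and 0.62 did not pass (adjusted p = 0.954 for both). Lfng, the Lunatic fringe glycosyltransferase, read 6.06, 6.09, 6.37 and 5.51, with tumor 5 lowest.

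Of the 13 genes of endocytosis and turnover, 8 read above the mean of the other 3 in tumor 1, 4 in tumor 2, 4 in tumor 4 and 5 in tumor 5. Mib1, the ubiquitin ligase that drives ligand endocytosis in the sending cell, read 9.25, 9.67, 9.17 and 9.07 and Neurl1b, a further ligase of this kind, 5.90, 6.85, 6.53 and 6.42. Both were highest in tumor 2, by differences of 0.50 (adjusted p = 0.784) and 0.57 (adjusted p = 0.789) that did not pass. Dtx4, a Deltex ligase, read 6.17, 5.95, 6.30 and 6.59, with tumor 5 highest.

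Of the 9 nuclear cofactors 6 read above the mean of the other 3 in tumor 1, 7 in tumor 2, 2 in tumor 4 and 2 in tumor 5. Tle1, a Groucho corepressor that binds Hes proteins, read 8.64, 8.51, 8.24 and 8.04, and Ep300, a histone acetyltransferase, 7.54, 7.59, 7.16 and 7.12. In both, tumors 1 and 2 lay above tumors 4 and 5, the division seen for Rbpj. The share of all probe sets above the floor divided the arrays likewise, at 61.3%, 60.8%, 59.2% and 59.1% in tumors 1, 2, 4 and 5. How many of all genes show this division was not counted. Kdm5a, a histone demethylase that acts with Rbpj, read 8.01, 8.26, 7.81 and 7.91, and Kat2b, an acetyltransferase, 8.65, 8.24, 8.37 and 8.25. No difference of the 4 passed (adjusted p from 0.462 to 1.00).

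Of the 4 measured genes in the list of other Hes and Hey genes, Hey2, Heyl and Bhlhe41 did not rise above the floor in any tumor, and Bhlhe40, a stress and clock repressor, read 5.85, 5.67, 6.08 and 6.05. Among the proneural factors, which Hes proteins repress, 3 genes passed the filter, and the widest span of these was that of Atoh1, at 9.92, 10.54, 10.81 and 10.90. It was lowest in tumor 1, as was Olig2, at 7.49, 8.18, 8.01 and 8.27, whereas Neurod1, the factor of granule cells leaving the cycle, was highest there, at 11.57, 10.87, 10.97 and 10.99. In tumor 1 the differences were -0.83 for Atoh1 (adjusted p = 0.135), -0.66 for Olig2 (0.173) and 0.63 for Neurod1 (0.233), and none passed. Hes1, the repressor of Atoh1, was also lowest in tumor 1. Neurod2, a factor of mature neurons that did not pass the filter, read 6.23 in tumor 1 and lay below the floor in the other 3.

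**Figure D4:**
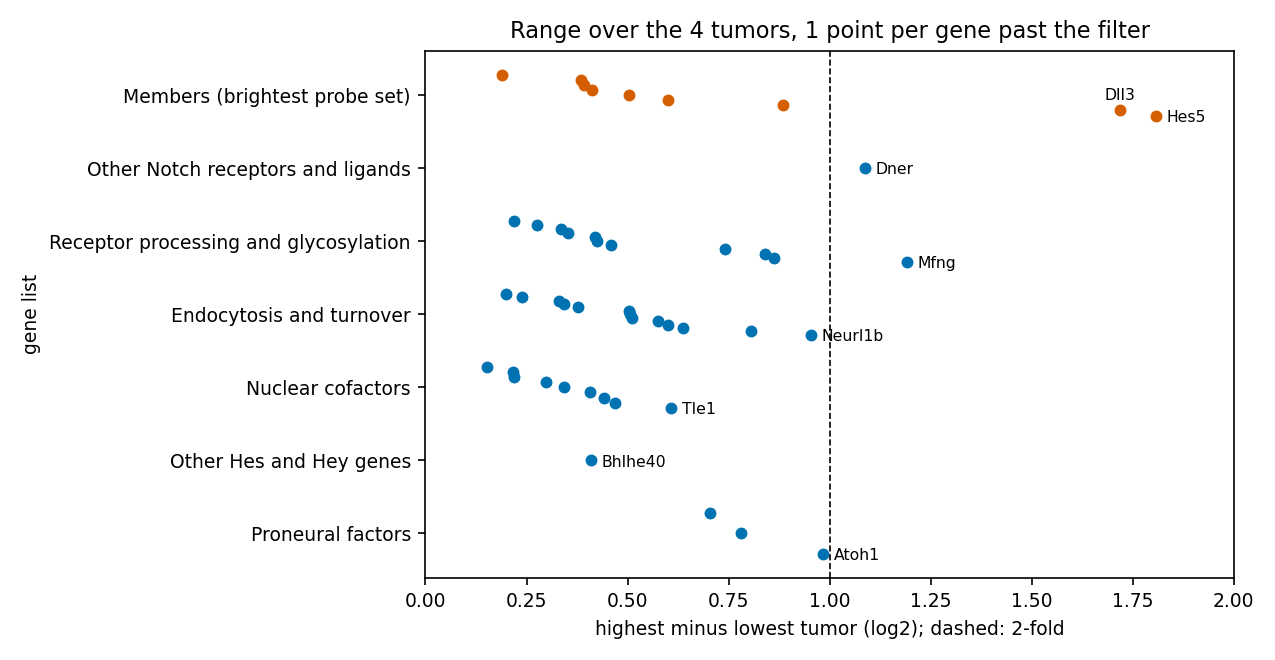
Range over the 4 tumors (x axis, highest minus lowest log2 signal, with values raised to the floor) for each gene past the filter at its brightest probe set, by gene list (y axis), with 2-fold as a dashed line and the widest gene of each list, with Dll3, named. Hes5, at 1.81, and Dll3, at 1.72, lie beyond Mfng, at 1.19, and Dner, at 1.09, and the other genes shown lie below 1.

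The genes most like Hes5, Dll3 and Notch1 over the 4 tumors were found by the root mean square difference of their deviations from their own means, over 8497 other genes. Nearest to Dll3 was Nin, which encodes the centrosome protein ninein, at a distance of 0.068, with 6.33, 7.87, 7.21 and 6.96, followed by Tshz3 (0.15) and Zc3hav1 (0.17). Nearest to Notch1 was Ofd1, a gene of the ciliary base, at 0.034, with 5.87, 6.68, 6.09 and 5.85, followed by Fam199x (0.053) and Plekha6 (0.062). Within a distance of 0.1 there were 20 genes for Notch1, 1 for Dll3 and 0 for Hes5, whose nearest were Tspan33 (0.27), Kank1 (0.27) and Erdr1 (0.29). With 4 arrays a like profile is a description only.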

How the data were processed

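Gene expression was measured in 4 Chd7-het cerebellar tumors, 1 array each. The deposited values are log2 signals, which the authors made with MAS5 per the submitters' processing notes (version and scaling target: not given in the sources used here). MAS5 summarises each array on its own and does not align distributions between arrays, and low signals are noisy. The table held 29304 probe sets, named through the platform annotation: 24679 had a single symbol, 647 several and 3917 none, and 61 were controls. Values were raised to a floor (40th percentile, 5.12, or 34.8 linear). Probe sets with a single symbol and a mean of at least the median of all means (5.87, or 58.5 linear) were kept. For each tumor against the rest, lmFit and eBayes with trend (limma 3.58.1, R 4.3.3) were run over all 13525, with Benjamini-Hochberg adjustment, after the script was tested on simulated data. Every member and probe set was named. Of the other pathway genes, any that were called and the 4 with the widest range in each list were named. Only some of the cell type markers were named. The gene lists and members were chosen with earlier results of these data known. The number of arrays limits the precision. Other floors, filters, a quantile normalization, a fit without trend, 1 probe set per gene and the omission of each tumor were tried.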

Additional observations from a re-analysis of the deposited data

How the results depend on the processing

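The differences of the members from the other tumors (the farthest tumor of each probe set, and each with an unadjusted p under 0.05) were followed over 160 alternatives. Each such tumor was the highest or lowest on its probe set. Leaving out another tumor, or changing the floor, filter or trend, therefore could not turn its sign. Only the quantile normalization could have done so. All 160 kept their direction, which is thus no measure of stability, and 158 also their side of the threshold. The exceptions were Dll3 in tumor 1 without tumor 5 and Hes5 1456010_x_at in tumor 5 without tumor 1, given with the results; each leaves 1 residual degree of freedom, and the lone tumor is assumed to vary like the others. The number of member probe sets called accordingly ran from 0 to 1 in tumors 1 and 5 when a tumor was left out. It stayed at 0 in tumors 2 and 4 and in every other setting run. The number of member probe sets with a range of 2-fold or more, 2 with all tumors, was between 1 and 2 when a tumor was left out (1 without tumor 1, 2 or 5). It cannot rise when a tumor is left out. The 7 genes highest in tumor 2 numbered between 7 and 8 when another tumor was left out, and the 5 lowest in tumor 5 between 5 and 7. Such counts can only stay or rise when another tumor is left out. The shares of all genes rose too, to between 31.6% and 35.4% and between 27.5% and 30.3%. After quantile normalization the counts were 7 (26.3% of all genes) and 4 (22.1%). These settings were added after seeing the data. Over all probe sets, 118 were called in tumor 1, 45 with the floor at the 50th percentile, 40 with the filter at the 75th percentile, where fewer were tested, and 136 to 301 when a tumor was left out (301 without tumor 2, 281 without tumor 5). In tumors 2, 4 and 5 the counts were 0, but 3, 9 and 10 with no filter, and from 0 to 92, 0 to 1 and 0 to 82 when a tumor was left out, the 92 in tumor 2 and the 82 in tumor 5 being without tumor 1. No paired analysis was possible because the labels give a single group. The filter left Dll1 untested, and dim probe sets such as Notch1 are the least certain.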
